A study of Homo sapiens with 6 samples.

Results

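Genes of vitamin D and retinoid (vitamin A) turnover and transport were examined in the bladder cancer cell line J82, which is of human origin and long established, with and without CRISPR/Cas9 targeting of FOXC1, a forkhead transcription factor. The 9 genes were CYP2R1, CYP27B1, CYP24A1, STRA6, RDH10, DHRS3, CRABP2, CYP26A1 and CYP26B1. They were chosen by their role in the 2 pathways with their values in these same libraries already known, so their differences between the groups are given as a description and not as a test. All 9 were found among the 57820 genes of the count table. Messenger RNA was sequenced in 3 control libraries and 3 libraries labelled FOXC1 KO (knockout). The KO cells had received the lentiviral vector LentiCRISPRv2 with 1 guide, the study describes J82 controls as vector control cells, and edited cells were puromycin-selected before use. All cells were grown in DMEM with fetal bovine serum, with no retinoid or vitamin D treatment named. The study's methods speak of knockout clones without giving their number, and nothing says whether the replicates came from separate cultures, so the spread between them may be technical.

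Vitamin D is made active in 2 hydroxylation steps. CYP2R1 adds the first hydroxyl group, CYP27B1 the second, and CYP24A1 begins the breakdown of the active hormone. The hormone acts through the vitamin D receptor VDR, which pairs with an RXR receptor and strongly induces CYP24A1 in many cell types, a feedback on the hormone's own level. Retinol is taken up from its carrier through STRA6, oxidized to retinal by RDH10 and reduced back to retinol by DHRS3. Retinal is oxidized to retinoic acid by the ALDH1A enzymes. Retinoic acid is carried to its receptors (RARs) by CRABP2 and degraded by CYP26A1 and CYP26B1. STRA6, DHRS3, CRABP2 and CYP26A1 are themselves known to be induced by retinoic acid.

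Library totals ranged from 18408134 to 25350908 counts. FOXC1 transcript was not lower in the KO libraries, at 18.4, 16.9 and 19.3 CPM (counts scaled to a common library size) in control and 24.1, 22.2 and 21.1 CPM in KO. The difference was 0.30 on the log2 scale (edgeR adjusted p 0.0127, SE 0.0914), under the 1.3-fold threshold used for calls. The transcript therefore does not check the labels. Per the study's methods, knockout clones were checked by western blot, which is not analysed here. Directions below are between the libraries as labelled. Defining markers of epithelium were present: KRT7, KRT8, KRT18, KRT19, EPCAM, GATA3 and PPARG were detected in all libraries, whereas KRT5, UPK1B and UPK2 had at most 5 counts in any library. Of 7 tested epithelial markers 6 were called lower in KO, where 8.39% of all tested genes were called lower and 7.57% higher. The marker lists were chosen with earlier results of these data known, so nothing is read from counts of calls among them. The summed level of the 10 listed epithelial markers was 3181.8 to 4004.2 CPM in control and 2490.6 to 2767.2 CPM in KO. The blood cell markers summed to at most 1.25 CPM, with CD3E at 0. Of the endothelial markers, CDH5 had 0, 0 and 1 counts in control and 18, 18 and 26 in KO, and VWF had at most 7. Of 4 fibroblast markers COL1A1 was higher and DCN lower in KO, and their summed level was 100 to 110 CPM in control and 104 to 118 CPM in KO. Whether these shifts have a part in the values below was not tested, and in bulk RNA fewer cells of a type cannot be told apart from less RNA per cell.

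The regulatory sequence around the start sites was examined first, because both hormones act through paired receptors on repeated half-sites. CYP24A1, CYP27B1 and RDH10 were left out of this search, so the window counts below do not cover them. RefSeq promoters (GRCh38.p14, 250 bases before to 50 after a start site) were taken for 6 of the 9 genes, in 15 windows. They were searched on both strands for direct repeats of the nuclear receptor half-site (A or G, G, G or T, T, C or G, A) at a spacing of 3, the arrangement known for VDR, and of 5 or 2, those known for RARs, and for the forkhead core GTAAACA. The repeat with a spacing of 5 was found in 1 member window, that of CYP26A1, and in 0.342% of all 35116 windows of the table. The repeats with a spacing of 3 and of 2 were in 0 member windows, as was GTAAACA, against 0.251%, 0.236% and 3.42% of all windows. Forkhead sequences other than GTAAACA and, as an alternative, GTAAATA were not searched. A match is a run of letters and not a measured binding site, and absence from these windows says nothing of sequence elsewhere. The windows of CYP26A1 (chr10:93073643-93073942, plus strand) and CYP26B1 (chr2:72147813-72148112, minus strand), sister enzymes whose transcripts differed in opposite directions below, are shown 5′ to 3′ with the repeat in capitals, which begins at base 161 of the first window and reads as the repeat on its minus strand.
CYP26A1: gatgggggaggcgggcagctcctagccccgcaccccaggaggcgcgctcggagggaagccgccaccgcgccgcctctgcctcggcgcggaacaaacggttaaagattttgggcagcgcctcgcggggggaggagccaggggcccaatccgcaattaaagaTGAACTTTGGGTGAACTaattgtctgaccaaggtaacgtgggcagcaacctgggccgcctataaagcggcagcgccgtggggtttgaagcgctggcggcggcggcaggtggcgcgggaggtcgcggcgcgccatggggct
CYP26B1: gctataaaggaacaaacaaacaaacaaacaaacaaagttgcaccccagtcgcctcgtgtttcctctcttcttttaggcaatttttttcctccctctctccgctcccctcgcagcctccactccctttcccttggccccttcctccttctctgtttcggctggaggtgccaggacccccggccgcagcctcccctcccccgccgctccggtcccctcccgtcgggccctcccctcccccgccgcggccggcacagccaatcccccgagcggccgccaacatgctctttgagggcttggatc

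The vitamin D enzymes were described in the order of the pathway. CYP2R1 (chromosome 11, 14898986 to 14913777, GRCh37, minus strand) was the best expressed of them, at 12.3, 12.7 and 14.2 CPM in control and 9.3, 11.2 and 9.91 CPM in KO. Every KO library lay below every control library, with a log2 fold change of -0.36 (SE 0.106), a 1.29-fold difference that is just under the 1.3-fold threshold. Leaving out single libraries moved it both ways, past the threshold at -0.41 without control replicate 1, -0.39 without control replicate 2 and -0.44 without KO replicate 2, and closer to 0 at -0.30 without control replicate 3 and -0.31 without KO replicate 1.

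CYP27B1 (chromosome 12, 58156117 to 58162769, minus strand), the activating enzyme, was scarce. Its control libraries held 14, 8 and 13 counts (0.625, 0.328 and 0.512 CPM) and its KO libraries 18, 26 and 23 counts (0.979, 1.03 and 0.978 CPM). The groups did not overlap, and the KO CPM values were nearly equal to each other while the control values were more spread. The log2 fold change was 1.03 (SE 0.303). With DESeq2, and in edgeR without control replicate 2 (log2 fold change 0.81), CYP27B1 was no longer called. The annotation gives it 107 exon bases shared with METTL1, on the same strand, which itself had a log2 fold change of -0.10 (edgeR adjusted p 0.428, SE 0.0866). METTL1 held far more counts, 573, 550 and 625 in control and 409, 574 and 537 in KO. Whether reads of METTL1 enter the CYP27B1 counts was not tested.

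CYP24A1 (chromosome 20, 52769985 to 52790525, minus strand), the enzyme that inactivates the hormone, had the largest difference of the 8 fitted genes. Its control libraries held 3, 6 and 3 counts (0.134, 0.246 and 0.118 CPM), of which 2 lay at the floor of 3 counts, and its KO libraries 40, 54 and 63 counts (2.18, 2.14 and 2.68 CPM). The lowest KO library was far above the highest control library. Taken over the summed counts, 157 in KO against 12 in control, the ratio of depth-scaled counts was 14.1 (exact 95% interval 7.84 to 27.8, counting error only). The fitted log2 fold change was 3.77 (SE 0.318), number 16 from the highest of 15647 tested genes, and ranged from 3.57 to 4.16 over 11 alternatives. Scatter within each group was no larger than counting error gives, with a chi-square per degree of freedom of 0.715 in control and 0.893 in KO.

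The balance of the activating and the inactivating enzyme was compared within libraries on levels per kilobase of exon (RPKM, CPM divided by exon length). The length is that of all annotated exons of a gene merged, and not of the transcript expressed. The size of a ratio or share between genes, here and below, depends on it, while the same length serves both groups. The ratio of CYP24A1 to CYP27B1 was 0.176, 0.618 and 0.19 in control and 1.83, 1.71 and 2.26 in KO. CYP27B1 was thus the more abundant transcript per length in all control libraries and CYP24A1 in all KO libraries, although the control ratios rest on 3 to 6 CYP24A1 counts. The genes beside CYP24A1 showed small differences. PFDN4, 34.1 kb away, had a log2 fold change of 0.22 (edgeR adjusted p 0.0241, SE 0.0739), under the fold threshold, and ZNF217, 543.5 kb away, of -0.11 (edgeR adjusted p 0.24, SE 0.0711).

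**Figure D1:**
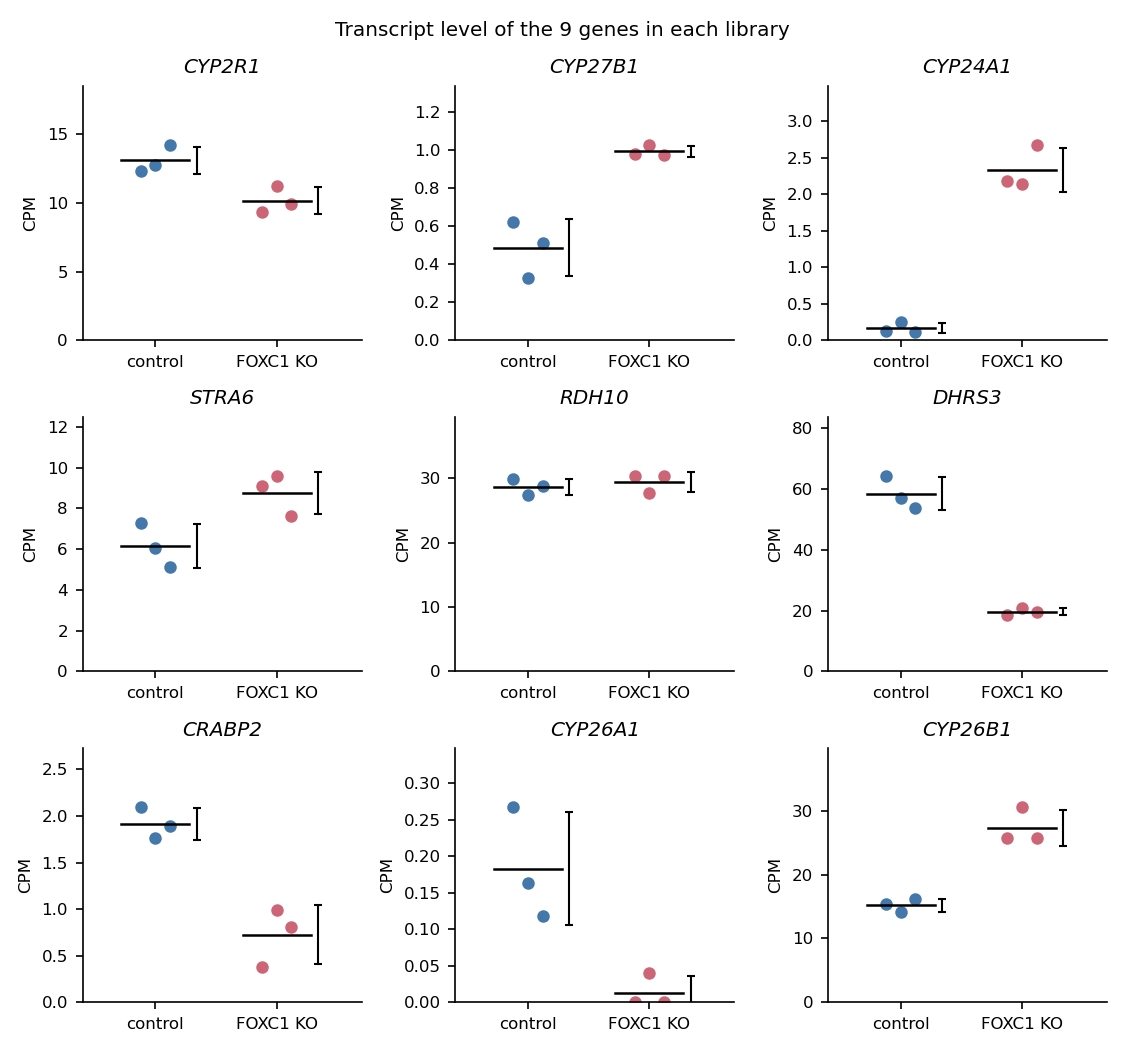
CPM of each of the 9 genes (vertical axes, linear from 0, a separate scale for each gene) in the 3 control (blue) and 3 FOXC1 KO (red) libraries, with the group mean as a line and the SD as a bar. The groups are apart in every panel but that of RDH10, whose values run from 27.4 to 30.4 CPM in both groups together, and CYP26A1 is at most 0.268 CPM.

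On the retinoid side, the carrier receptor and the enzymes that interconvert retinol and retinal were taken first. STRA6 (chromosome 15, 74471807 to 74504608, minus strand), the membrane receptor for the retinol carrier, was higher in KO, at 7.27, 6.07 and 5.12 CPM in control and 9.08, 9.6 and 7.61 CPM in KO. The lowest KO library exceeded the highest control library by a small margin, and the log2 fold change was 0.52 (SE 0.13). Its scatter exceeded counting error, with a chi-square per degree of freedom of 4.55 in control and 2.9 in KO. STRA6 shares 519 exon bases with CCDC33 on the opposite strand, and CCDC33 had at most 2 counts in any library. Of its nearest tested genes, ISLR2, at 40.9 kb, had a log2 fold change of -0.91 (edgeR adjusted p 0.0542) and was not called. SEMA7A, on the other side at 197 kb, had a log2 fold change of 2.89 (edgeR adjusted p 1.06e-17, SE 0.115).

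RDH10 (chromosome 8, 74206837 to 74237516, plus strand), which oxidizes retinol to retinal, was the one fitted member whose groups overlapped. It stood at 29.9, 27.4 and 28.8 CPM in control and 30.4, 27.7 and 30.3 CPM in KO. Its log2 fold change was 0.04 (SE 0.0835), a fold of 1.03. Part of its gene overlaps RPL7 and RDH10-AS1 on the opposite strand, and the latter shares 278 exon bases with it and held 4 to 11 counts per library.

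DHRS3 (chromosome 1, 12627939 to 12678216, minus strand), which turns retinal back into retinol, was the most abundant member in control and was lower in KO by 2.97-fold. Its values were 64.3, 57.1 and 53.6 CPM in control and 18.6, 20.8 and 19.4 CPM in KO. No library came near the other group, and the control libraries scattered far beyond counting error (chi-square per degree of freedom 11.9, against 1.35 in KO). The log2 fold change was -1.57 (SE 0.0873) and lay between -1.63 and -1.50 over 12 alternatives. VPS13D, the tested gene before it at 55.8 kb, had a log2 fold change of -0.14 (edgeR adjusted p 0.215, SE 0.082). PRAMEF1, after it at 173.3 kb, had -3.59 (edgeR adjusted p 5.86e-08, SE 0.407), on 30, 35 and 30 counts in control and 2, 1 and 4 in KO, and belongs to a family of near-identical genes whose counts are uncertain.

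RDH10 and DHRS3 catalyze opposite reactions, so their levels were set against each other within libraries. DHRS3 stood at 3.26, 3.16 and 2.82 times the RPKM of RDH10 in control and at 0.928, 1.14 and 0.968 times in KO. On merged exon lengths, the retinal reductase was thus about 3.08 times as abundant as the oxidase in control, and the 2 transcripts were near parity in KO. RDH10 itself had a fold of 1.03 and DHRS3 was lower by 2.97-fold.

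Downstream of retinal, CRABP2 (chromosome 1, 156669398 to 156675608, minus strand), which delivers retinoic acid to its receptors, was lower in KO. It held 47, 43 and 48 counts (2.1, 1.76 and 1.89 CPM) in control and 7, 25 and 19 counts (0.381, 0.992 and 0.808 CPM) in KO. KO replicate 1 was the lowest, but the other two also lay below every control library. The log2 fold change was -1.33 (SE 0.255), and it ranged from -1.62 to -1.08 over 11 alternatives. CRABP1, its relative, had 0 counts in every library. FABP5, another fatty acid binding protein family member that carries retinoic acid, is described among the other pathway genes below.

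The enzymes that degrade retinoic acid differed in opposite directions. CYP26B1 (chromosome 2, 72356367 to 72374991, minus strand) was higher in KO, at 15.4, 14.1 and 16.1 CPM in control and 25.7, 30.6 and 25.7 CPM in KO. The log2 fold change was 0.85 (SE 0.0949), and it ranged from 0.76 to 0.89 over 12 alternatives. Its nearest tested genes differed in both directions on the log2 scale. EXOC6B, 28.1 kb away, had -0.56 (edgeR adjusted p 2.38e-06, SE 0.0785). DYSF, 442.5 kb away, had 0.53 (edgeR adjusted p 0.00136, SE 0.123).

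CYP26A1 (chromosome 10, 94833232 to 94837642, plus strand) was barely detected and did not pass the filter on low counts, so it has no value in the main fit. It held 6, 4 and 3 counts in control and 0, 1 and 0 in KO, where every library was at or under the floor of 3 counts. The summed counts of 13 against 1 gave a control over KO ratio of 12.1 with an exact 95% interval of 1.81 to 513, a range set by the single KO count. Per kilobase, CYP26B1 made up 97.2% to 98.8% of the CYP26 transcript in control and 99.8% to 100% in KO, and CYP26C1 had 0 counts throughout. The repeat in the CYP26A1 window shown above thus belongs to a gene with few counts in both groups, and a link between the repeat and the counts was not tested. Of the nearest tested genes not yet named, MARCHF9, 1.9 kb from CYP27B1, was called lower (-0.41, edgeR adjusted p 0.0027). SOX6, 1074.2 kb from CYP2R1, was also called lower (-1.10, edgeR adjusted p 0.0028). PDE3B, 5.4 kb from CYP2R1 on its other side, was not called (-0.55, edgeR adjusted p 0.0895). The nearest tested genes left unnamed were not called either. EXOC6, 14 kb from CYP26A1, had a log2 fold change of -0.11 (edgeR adjusted p 0.357, SE 0.0886).

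CYP26B1 and DHRS3 both lower the supply of retinoic acid, the former by degrading it and the latter by returning its precursor to retinol, and they differed in opposite directions. The RPKM of CYP26B1 was 0.175, 0.18 and 0.218 times that of DHRS3 in control and 1, 1.07 and 0.964 times in KO.

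**Figure D2:**
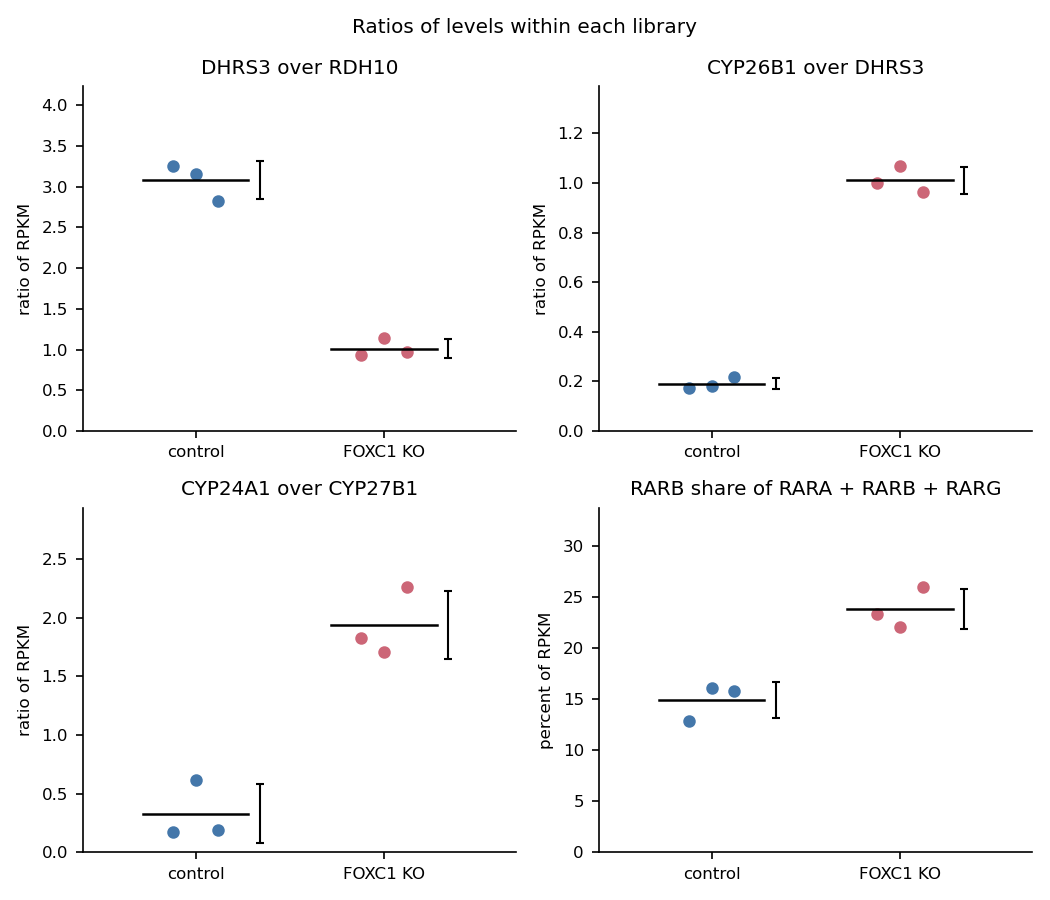
Ratios of RPKM within each library (vertical axes, linear from 0) for DHRS3 over RDH10, CYP26B1 over DHRS3 and CYP24A1 over CYP27B1, and the RARB share of the summed RAR level in percent, in control (blue) and FOXC1 KO (red) libraries with the mean as a line and the SD as a bar. DHRS3 over RDH10 is 2.82 to 3.26 in control and 0.928 to 1.14 in KO, and the other 3 measures are higher in every KO library.

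The order of levels per length also differed between the groups. Ranks between genes depend on the merged exon length, which ran from 1082 bases for CRABP2 to 7669 for STRA6. In control, DHRS3 came first at 16.6 ± 1.54 RPKM (SD, n = 3), followed by RDH10 at 5.39 ± 0.233 RPKM. CYP26B1 (3.15 ± 0.205) and CYP2R1 (2.91 ± 0.222) came next with overlapping values, then CRABP2 (1.77 ± 0.156), STRA6 (0.802 ± 0.141) and CYP27B1 (0.149 ± 0.0456). CYP26A1 and CYP24A1 were last with overlapping values, at 0.0618 ± 0.0259 and 0.0416 ± 0.0175 RPKM. In KO, CYP26B1 (5.65 ± 0.584), DHRS3 (5.57 ± 0.311) and RDH10 (5.53 ± 0.293) overlapped at the top. CYP2R1 (2.25 ± 0.215) and STRA6 (1.14 ± 0.135) followed, and STRA6 thus stood above CRABP2 (0.672 ± 0.29), which overlapped CYP24A1 (0.585 ± 0.0754). CYP27B1 (0.303 ± 0.00936) and CYP26A1 (0.00446 ± 0.00773) were last.

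**Figure D3:**
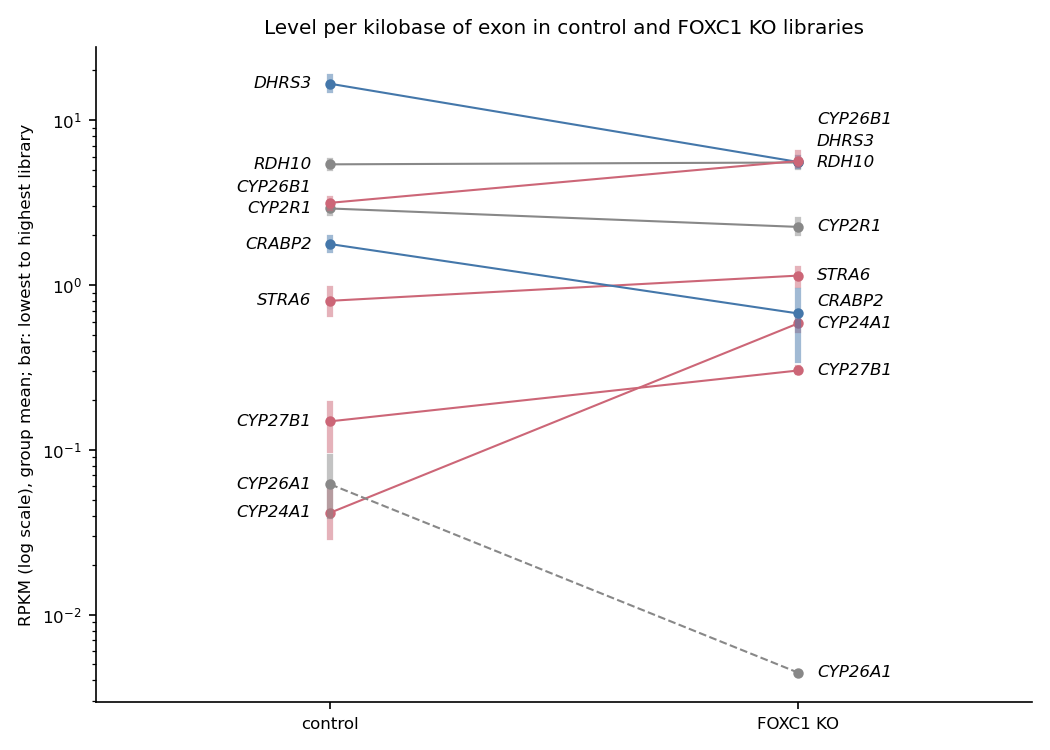
Group mean RPKM (vertical axis, log scale) of the 9 genes in control and FOXC1 KO libraries, joined by lines that are red for called higher, blue for called lower, grey for not called and dashed for CYP26A1, which was not fitted. Thick bars run from the lowest to the highest library and are left out where a library is at 0, and the lines for DHRS3, RDH10 and CYP26B1 meet near 5.5 RPKM in KO from 16.6, 5.39 and 3.15 RPKM in control.

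Counted together, 8 of the 9 genes passed the filter on low counts. In the fit over all genes (edgeR, threshold 0.05 on the adjusted p and 1.3 on the fold), 4 of the 8 were called higher in KO (CYP24A1, CYP27B1, CYP26B1 and STRA6) and 2 lower (DHRS3 and CRABP2), with CYP2R1 and RDH10 not called. Of all 15647 tested genes 7.57% were called higher and 8.39% lower. Control and KO values were apart for 7 of the 8 and for 41.3% of all tested genes. Because the 9 were chosen with this contrast known, nothing is read from these counts. The median log2 fold change of the 8 was 0.28, and that of all tested genes was -0.000839.

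To place the 9 genes in their pathways, 71 other genes of vitamin D and retinoid handling were listed by role, and 41 of them were tested. Of these 3 were called higher (7.32%) and 11 lower (26.8%), against the 7.57% and 8.39% of all tested genes, and their median log2 fold change was -0.11. No list was tested as a set. The lists were chosen with earlier results of these data known, so nothing is read from these shares or from the counts by list below. The other 30 had too few counts, 10 of them with 0 counts in all libraries, among them GC, the plasma carrier of vitamin D, and TTR, which carries retinol with its binding protein.

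The tested receptors through which CYP24A1 is known to be induced were not called. VDR stood at 15.7 ± 1.34 CPM (SD, n = 3) in control and 14.8 ± 0.267 CPM in KO, a difference of -0.08 on the log2 scale (edgeR adjusted p 0.561, SE 0.0962). RXRA (-0.14, SE 0.0926) and RXRB (0.15, SE 0.103) and the coactivator subunit MED1 (0.02, SE 0.0695) were not called either. RXRG had too few counts to be tested, with 5, 8 and 3 in control and 0, 1 and 2 in KO. On the supply side LRP2, the endocytic receptor megalin that takes up carrier-bound vitamin D, fell with a log2 fold change of -0.61 (edgeR adjusted p 0.002, SE 0.146). DHCR7, which uses up the precursor of vitamin D, and PDIA3, a protein also proposed as a membrane receptor for it, had -0.11 and -0.08 and were not called.

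Known targets of the vitamin D receptor were mixed in direction. Of 13 listed targets 6 were tested, of which 2 rose, as CYP24A1 was higher, and 3 fell, with a median log2 fold change of -0.08. CD14, a co-receptor for bacterial lipopolysaccharide, had a log2 fold change of 0.62 (edgeR adjusted p 0.00129, SE 0.141). SPP1, which encodes osteopontin, had 0.89 (adjusted p 0.00279, SE 0.221). THBD, encoding thrombomodulin, had -0.77 (adjusted p 1.3e-06, SE 0.105), and DUSP10, a phosphatase of stress kinases, -0.78 (adjusted p 1.16e-09, SE 0.0723). SEMA3B, a secreted semaphorin, had -0.41 (adjusted p 0.000663, SE 0.0872) and fell short of the fold threshold at -0.37 without control replicate 1 or without KO replicate 3. IGFBP3 was not called (0.24, SE 0.0942, adjusted p 0.0589). TRPV6 and CAMP, which respond strongly to the hormone in gut and myeloid cells, had 0 counts.

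Among the genes of retinoid synthesis, ALDH1A3, which oxidizes retinal to retinoic acid, rose from 33 ± 1.17 to 49.2 ± 5.06 CPM (SD, n = 3), a difference of 0.57 on the log2 scale (edgeR adjusted p 4.63e-06, SE 0.0841). It made up 96.9% to 98.6% of the RPKM of the 3 ALDH1A enzymes in control and 99.2% to 99.5% in KO. AKR1B10, which reduces retinal as DHRS3 does, fell with a log2 fold change of -0.78 (adjusted p 0.00213, SE 0.188). BCO2, a carotenoid-cleaving enzyme of 8 to 28 counts per library, was called lower at -0.90 (adjusted p 0.0319, SE 0.318) but not with DESeq2 (adjusted p 0.2), nor without control replicate 2 (0.0591) or 3 (0.155), nor without KO replicate 2 (0.19) or 3 (0.0541). RDH11 (0.14, adjusted p 0.129) and RETSAT (0.07, adjusted p 0.491), the uncalled genes of this list with the highest CPM, reduce retinal and saturate retinol respectively.

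Of 6 tested genes of retinol uptake, binding and storage 2 fell and 0 rose. FABP5 fell from 30.6 ± 0.79 to 21.9 ± 3.11 CPM (SD, n = 3), a difference of -0.48 on the log2 scale (edgeR adjusted p 0.00025, SE 0.0935), and it fell short of the fold threshold without KO replicate 1 (-0.37). The RPKM of CRABP2 relative to FABP5 was 0.0985 to 0.123 in control and 0.0366 to 0.0733 in KO. RBP7, a cellular retinol-binding protein, had a log2 fold change of -1.01 (adjusted p 0.00692, SE 0.282), with an adjusted p of 0.0843 in DESeq2, another count model. DGAT1, which can esterify retinol, and RBP5, another cellular retinol-binding protein, were not called (0.23 and -0.16).

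All 3 retinoic acid receptors were expressed, and their proportions differed between the groups. RARG fell from 41.8 ± 3.7 to 27.7 ± 1.96 CPM (SD, n = 3), a difference of -0.59 on the log2 scale (edgeR adjusted p 4.61e-06, SE 0.0864). RARA had -0.36 (adjusted p 0.00698, SE 0.1), under the fold threshold. It passed that threshold without control replicate 2 (-0.40) or 3 (-0.38) or KO replicate 2 (-0.46), and was closer to 0 without control replicate 1 (-0.30) or KO replicate 3 (-0.29, edgeR adjusted p 0.0571). RARB, itself a retinoic acid-induced gene, had 0.33 (adjusted p 0.00486, SE 0.0872), also under the fold threshold. The RARB share of the summed RAR RPKM was 12.9% to 16.1% in control and 22.1% to 26% in KO, and that of RARG was 55.1% to 58% and 46.8% to 49%. The summed RPKM was 13.9 to 15.5 in control and 10.6 to 12 in KO.

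Among genes known to respond to retinoic acid, 2 of 10 tested fell and 0 rose. RARRES3 (annotated as PLAAT4) fell from 19.5 ± 0.79 to 11.5 ± 0.559 CPM (SD, n = 3), a difference of -0.76 on the log2 scale (edgeR adjusted p 3.11e-07, SE 0.095). RARRES1 had -0.58 (adjusted p 1.67e-06, SE 0.0796). TGM2, a transglutaminase and an early retinoid-responsive gene, had 0.33 (adjusted p 0.0017, SE 0.0775) and was not called, at a fold of 1.26. It passed the fold threshold without control replicate 1 (0.42). NR2F2, an orphan nuclear receptor, was not called (-0.15, adjusted p 0.109).

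**Figure D4:**
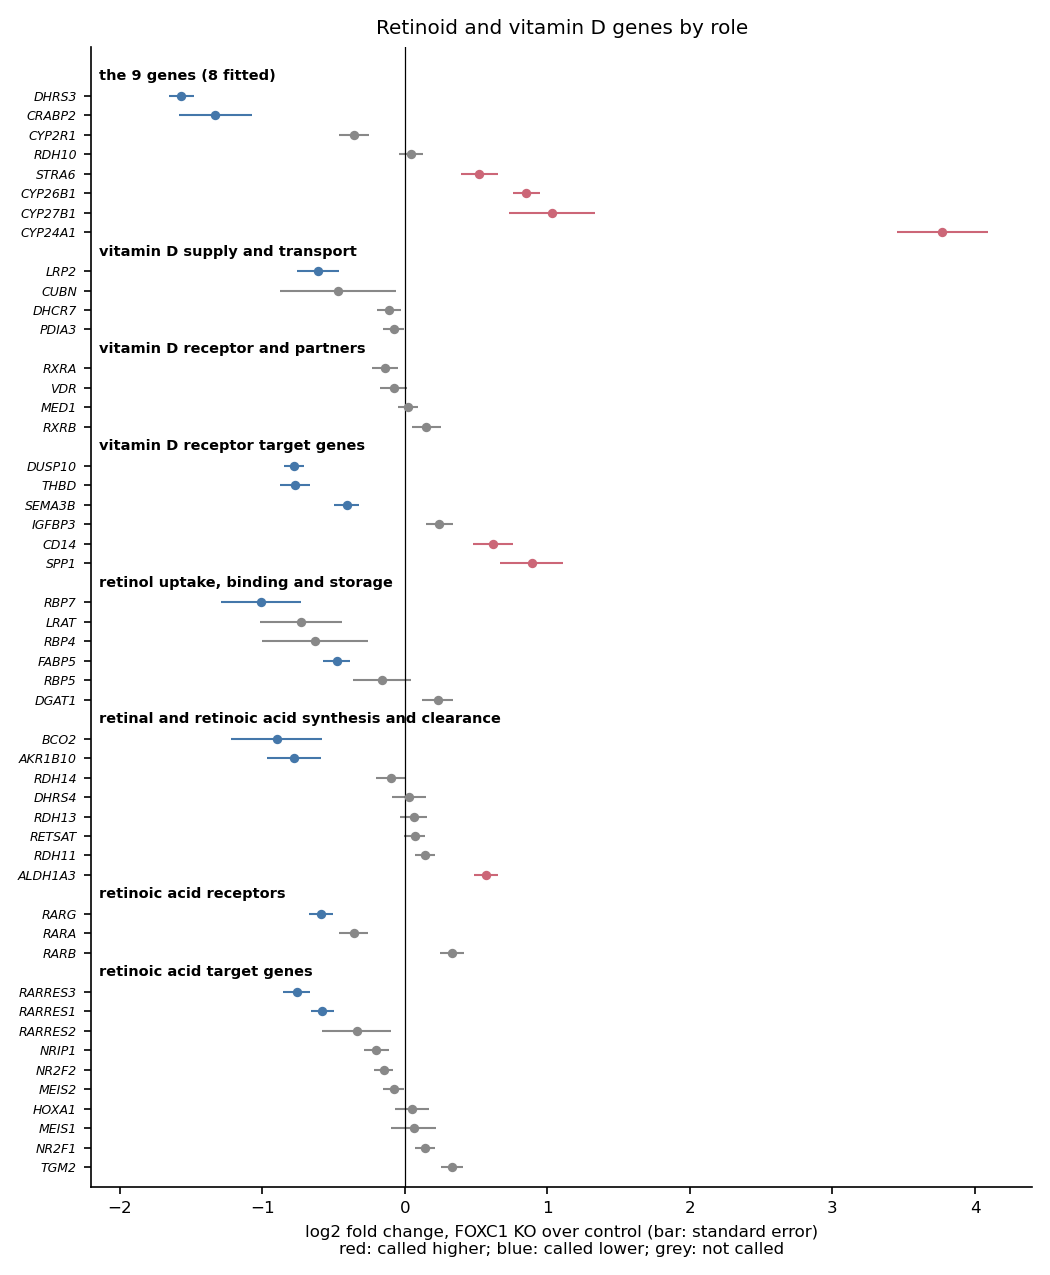
Log2 fold change of FOXC1 KO over control (horizontal axis) with its standard error for the 8 fitted genes of the 9 and for the 41 tested pathway genes, grouped by role (vertical axis), in red for called higher, blue for called lower and grey for not called. CYP24A1 at 3.77 stands far to the right of all others, DHRS3 at -1.57 and CRABP2 at -1.33 are the lowest, and VDR, RXRA, RXRB and MED1 lie between -0.14 and 0.15.

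Genes whose profile over the 6 libraries was most like that of CYP24A1 or DHRS3 were found by the root mean square difference of log2 CPM, each gene centered on its own mean. For CYP24A1 they were IL33 (0.226), CYP4F11 (0.269) and ENSG00000250657 (0.287). IL33, an alarmin cytokine, had a log2 fold change of 3.45 (SE 0.202). CYP4F11, another cytochrome P450, had 4.79 (SE 0.488) from a control mean of 0.0404 CPM. For DHRS3 they were PPP2R2B (0.102), NGEF (0.108) and FLT1 (0.111), with log2 fold changes of -1.44, -1.36 and -1.70. With 3 libraries a group, this likeness is set mainly by the difference between the groups.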

How the data were processed

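The 9 genes and the lists of pathway genes and markers were chosen with earlier results of these data known. Per the labels and the study's methods, the authors aligned paired reads to hg19 with STAR and assigned them to GENCODE version 19 genes with featureCounts of Subread. The deposited values are raw counts per gene, with replicates not pooled. Settings for strand and for reads mapping to several places are not given in the sources used here, so overlapping, antisense and near-identical genes are uncertain. Gene symbols, coordinates and exon lengths came from GENCODE v44lift37 on GRCh37, the assembly of hg19 (96.05% of 57820 rows matched). Groups came from sample titles, and 0 columns belonged to other samples.

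Genes passing filterByExpr (15647) entered a quasi-likelihood fit with robust dispersions (edgeR 4.0.16, R 4.3.3, TMM normalization) with no covariate, and the F test was used. Calls needed a Benjamini-Hochberg adjusted p below 0.05 and more than a 1.3-fold difference, the thresholds of the study's methods. Standard errors derive from the F statistic. CPM and RPKM were computed from the counts with TMM-scaled library sizes and merged exon lengths. Scatter is the chi-square of counts within a group over its degrees of freedom. Intervals of count ratios are exact, conditional on the total, and cover counting error only, as does the floor of 3 counts. Named were FOXC1, the 9 genes, called pathway genes and the 2 uncalled pathway genes with the highest CPM in each list. Overlapping or nearest tested genes, except some that were not called, and the 3 most alike profiles were named too. VDR, RXRB, RXRG, TTR, GC, CRABP1, CYP26C1, TRPV6 and CAMP were named for their role after their values were seen. Marker genes were listed by cell type, and 1 of them is not reported here. The endothelial marker PECAM1 matched no row. The procedure was tested on simulated counts. Alternatives were DESeq2 1.42.0, RLE size factors, library size alone, 2 filters, a block for the replicate number, omission of each library in turn, other fold thresholds and a second forkhead core.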

Additional observations from a re-analysis of the deposited data

How the results depend on the processing

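The 36 genes rechecked were the fitted members, FOXC1 and the tested pathway genes named above, except VDR and RXRB. Their direction and call were recomputed under each alternative. Of these values 407 kept their call, 11 lost and 7 gained a call, and 0 changed direction where either fit gave a call. Small differences of uncalled genes did change sign. DHCR7 went from -0.11 to 0.02 without control replicate 1, and RBP5 from -0.16 to 0.05 without control replicate 3. Without a fold threshold 2372 genes were higher and 2233 lower, with 5 pathway genes higher. Over a 2-fold threshold 316 genes were higher and 321 lower, with 2 members higher, 0 pathway genes higher and 1 lower. Without the filter on low counts, where CYP26A1 enters the fit, 4 members were higher and 3 lower. With a minimum mean of 50 counts, which removes CYP24A1, CYP27B1 and CRABP2 from the test, 2 members were higher and 1 lower. Leaving out each library in turn gave 1124 to 1231 genes higher and 1201 to 1408 lower, 3 to 4 members higher and 2 to 3 lower, and 3 to 4 pathway genes higher and 9 to 12 lower. Libraries with the same replicate number showed no strong shared deviation over all tested genes (correlations -0.0271, -0.0718 and 0.0501). Such correlations hold counting noise and cannot tell whether the samples were prepared in pairs. With the replicate number as a block, 1200 genes were higher and 1351 lower, with 4 members higher and 2 lower and 3 pathway genes higher and 12 lower. Adding GTAAATA to the forkhead core left 0 member windows with a match, while 5.97% of all windows held either. Depth limits CYP26A1, CYP24A1 and CYP27B1, whose libraries held few counts.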
